A study of Mus musculus with 6 samples.

Results

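The genes described here make ribosomes and polyamines. They are 41 listed mouse genes: 37 for nucleolar proteins and factors of RNA polymerase I, and 4 for the enzymes of polyamine synthesis. Members were taken from a list of gene names with no threshold on their values, and each was read at its probe set with the highest mean. The list was drawn up with earlier results of these data known, so shares of members called describe it and are no independent test. Of the 41, 38 had a probe set annotated to that gene alone, out of 18193 genes on the array, and all 38 lay above the filter on dim genes that left 10916 genes for testing. The nucleolar gene Npm3 and the polyamine gene Amd1 had no annotated probe set in the table used. The sets for Sms, which encodes spermine synthase, are annotated to that gene together with a pseudogene, so Sms was not analysed here.

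A ribosome starts in the nucleolus, where RNA polymerase I transcribes the precursor of the large ribosomal RNAs. Small nucleolar RNPs guide its chemical modification, and assembly factors cut and fold it into the small and the large subunit. Polyamines are small cations that bind RNA, and cells raise their synthesis together with ribosome production when they are pushed to grow. Resting fibroblasts that receive a growth stimulus are known to switch on these genes after the immediate early genes.

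The samples were NIH3T3 cells, an established line of mouse embryonic fibroblasts, 3 arrays with wild-type LPAR1 and 3 with mutant LPAR1. In either genotype a single array was hybridised for 0, 60 and 120 minutes. LPAR1 is a cell surface receptor for the serum lipid lysophosphatidic acid. The mutation, the stimulus and the number of cultures or clones are not given in the sources used here. Errors and p-values measure only how far these arrays depart from additive effects of genotype and time. They mix array noise with any true difference in time response between the genotypes. The fit also borrows from other genes, with 2 residual and 7.77 prior degrees of freedom. Lpar1 itself read 1335, 1290 and 1289 in wild-type and 1496, 1514 and 1438 in mutant cells at 0, 60 and 120 minutes, a difference of log2 0.18 ± 0.045 (limma adjusted p = 0.0207), which does not test a mutation that leaves the transcript in place.

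Median intensity per array lay between 34.1 and 37.3. All 10 fibroblast markers examined were above the filter, with a summed intensity of 67370 to 71794 per array. Of the markers of other cell types, 4 of 5 epithelial, 1 of 4 endothelial, 2 of 4 leukocyte and 0 of 3 muscle genes passed it, and none was listed at 0. The summed intensity was 1393 to 1716 for the epithelial list, led by Krt14, 312 to 380 for the leukocyte list and no more than 107 for the endothelial and muscle lists. For the control transcript Actb, 5′ over 3′ signal (which falls as RNA is degraded) was 0.579 and 0.505 at 0 minutes and 0.65 to 0.699 later, while for Gapdh it stayed between 0.954 and 1.03. The Actb ratio thus moved with time, and its part in the time changes below was not tested. In bulk RNA a change per cell and a change in the share of responding cells cannot be told apart.

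The starts of 7 member genes are shown first, because all 7 genes rose over 120 minutes and they differ in the known motifs near the start. The windows run from 120 bases before the annotated start site through the 30 bases from it, in RefSeq coordinates of GRCm38.p6, 5′ to 3′ on the strand of the gene. Rrn3 lies at chr16:13780579-13780728 (plus strand), Nop2 at chr6:125131763-125131912 (plus strand), Tsr1 at chr11:74897960-74898109 (plus strand) and Utp18 at chr11:93885737-93885886 (minus strand). Wdr43 lies at chr17:71616095-71616244 (plus strand), Nop56 at chr2:130274292-130274441 (plus strand) and Odc1 at chr12:17544753-17544902 (plus strand). Capitals mark the E-box CACGTG, a site that MYC and related factors can bind, and the ETS core CCGGAAG on either strand. The genes shown are examples. The E-box is commoner among them than among all members that rose (30.4% of 23 with a 300-base window).
Rrn3: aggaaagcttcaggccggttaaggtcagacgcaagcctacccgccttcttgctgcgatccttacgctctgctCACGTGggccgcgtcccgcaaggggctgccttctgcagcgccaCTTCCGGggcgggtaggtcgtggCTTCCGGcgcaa
Nop2: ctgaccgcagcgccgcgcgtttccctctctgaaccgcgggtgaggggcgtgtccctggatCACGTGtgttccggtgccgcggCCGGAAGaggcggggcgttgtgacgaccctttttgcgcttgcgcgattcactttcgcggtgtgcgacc
Tsr1: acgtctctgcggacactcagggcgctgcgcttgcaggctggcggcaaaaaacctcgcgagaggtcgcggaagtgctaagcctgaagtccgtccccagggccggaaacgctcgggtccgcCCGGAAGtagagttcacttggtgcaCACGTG
Utp18: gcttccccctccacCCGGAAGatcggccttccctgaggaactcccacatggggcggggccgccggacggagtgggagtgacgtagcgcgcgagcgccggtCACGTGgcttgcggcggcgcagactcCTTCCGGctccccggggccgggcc
Wdr43: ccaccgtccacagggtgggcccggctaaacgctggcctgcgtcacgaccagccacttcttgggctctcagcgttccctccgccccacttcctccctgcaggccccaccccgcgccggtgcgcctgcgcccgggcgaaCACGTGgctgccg
Nop56: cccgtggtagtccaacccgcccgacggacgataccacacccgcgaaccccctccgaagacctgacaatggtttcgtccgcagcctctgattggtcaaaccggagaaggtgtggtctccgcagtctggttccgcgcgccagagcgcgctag
Odc1: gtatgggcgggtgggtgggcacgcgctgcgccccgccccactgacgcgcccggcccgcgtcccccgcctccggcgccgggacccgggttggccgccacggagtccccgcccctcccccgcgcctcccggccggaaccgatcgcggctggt

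RefSeq windows of 300 bases, from 250 before to 50 after a start, were matched for 35 of the 41 members, and 6 motifs were searched on both strands. A gene counted if any of its windows held the motif, and the 35 members had 44 windows. Shares of tested genes are in the same unit, whereas shares of all windows are per window. CACGTG was in a window of 9 of the 35 (25.7%), against 7.15% of all 32851 windows and 11.8% of the 8896 tested genes with a window. The 9 were Rrn3, Wdr43, Utp18, Ltv1, Tsr1, Pes1, Nop2, Mybbp1a and Sms. CCGGAAG was in windows of 13 members (37.1%), against 8.86% of all windows and 20.6% of tested genes. Both motifs occurred in 6 members, Rrn3, Utp18, Ltv1, Tsr1, Nop2 and Sms, and no match of one overlapped a match of the other. In Nop2 the E-box began at position -60 and the ETS core at -38, counted with the start site as 0. In Tsr1 they began at 24 and -1. Odc1 and Nop56, which had large changes, held neither motif in the windows printed, which says only that these letters are not there. Of the 23 members with a window that rose by 120 minutes, 7 held the E-box (30.4%) and 11 the ETS core (47.8%), where 13.9% and 21% of all genes called higher did. Of the 9 tested members with a window that did not rise, 1 held each. Of the other motifs, the GC box GGGCGG was in windows of 29 members (82.9%; 68.7% of tested genes and 35.7% of all windows), CCAAT in 10 (28.6%; 43.2% and 37.4%), TATAAA in 2 (5.71%; 8.95% and 13.6%) and the cyclic AMP element TGACGTCA in 1 (2.86%; 3.62% and 1.79%). Overlap with these was not counted. Counts describe letters in a window and not bound sites.

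The comparison of 120 with 0 minutes gives the net change over both genotypes, and most members were higher. Of 38 members tested, 27 rose (71.1%) and 1 fell, where 16.2% of all 10916 genes were called higher and 30.8% lower. The median member changed by log2 0.51 against -0.09 for the median of all genes. Without a model, 15 members were at least 1.5-fold higher in both genotypes, where 4.39% of all genes were, and 0 were that much lower (6.33% of all genes). A gene was called at an adjusted p of 0.05 in limma, fitted across all genes with genotype and time as terms, on log2(intensity + 16). This offset compresses changes of dim genes. With each array divided by its median, 31 members rose and 0 fell, while the share of higher calls among all genes called moved from 34.5% to 45.7%. Each fitted time difference rests on 2 arrays per time, 1 of each genotype.

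**Figure D1:**
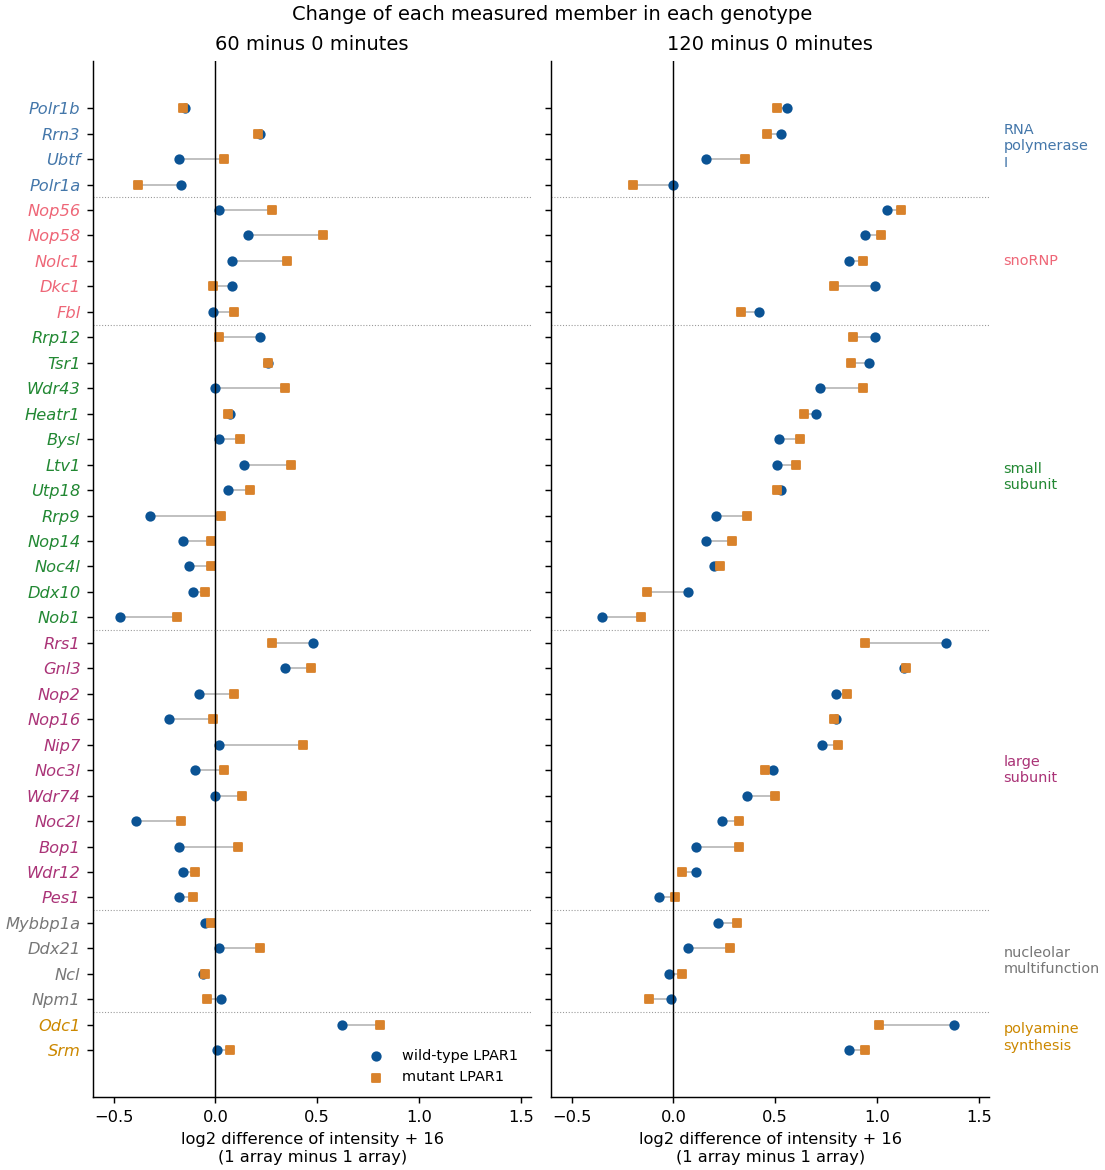
Log2 difference of each of the 38 measured members from the 0 minute array of its own genotype, at 60 minutes (left) and 120 minutes (right); circles are wild-type and squares mutant cells, 1 array minus 1 array, with genes grouped and coloured by role. At 120 minutes 32 members lie right of 0 in both genotypes, and at 60 minutes 18 do.

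Polyamine synthesis was measured at 2 of its 4 genes, and both rose over 120 minutes (16.2% of all genes did). Odc1 encodes ornithine decarboxylase, the rate-limiting enzyme that makes putrescine. Its intensity at 0, 60 and 120 minutes was 983, 1518 and 2587 in wild-type and 938, 1656 and 1908 in mutant cells. Both later arrays lay above both 0 minute arrays, and the 120 minute array was the highest in each genotype. Odc1 rose by log2 1.20 ± 0.11 (SE) over 120 minutes, or 2.29-fold, the largest change of any member (limma adjusted p = 1.28e-05). The set used holds probes that can also match other transcripts; the gene's other sets above the filter gave 1.20 and 1.03. Srm encodes spermidine synthase, which turns putrescine into spermidine. It read 489, 491 and 901 in wild-type and 449, 472 and 875 in mutant cells. The values at 0 and 60 minutes were close together and both 120 minute arrays stood apart from them. Srm rose by log2 0.90 ± 0.064, or 1.86-fold (limma adjusted p = 3.33e-06).

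**Figure D2:**
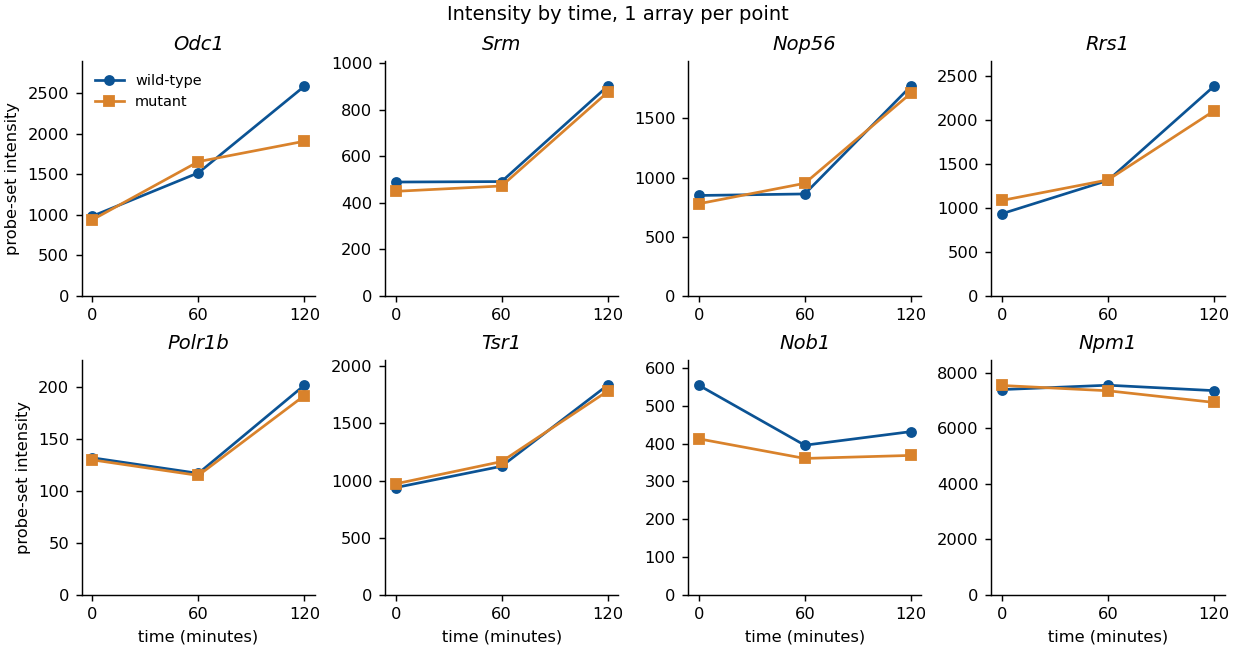
Probe-set intensity (vertical axis from 0, linear) against time in minutes for 8 members, 1 array per point, wild-type as circles and mutant as squares. Odc1 is already higher at 60 minutes, Srm and Nop56 are higher at 120 minutes, Nob1 is lower after 0 minutes and Npm1 stays between 6936 and 7557.

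All 5 genes of the small nucleolar RNP group rose over 120 minutes, where 16.2% of all genes did. Nop56 and Nop58 are core proteins of the box C/D particles, which guide methylation of ribosomal RNA. Nop56 read 848, 861 and 1772 in wild-type and 778, 951 and 1712 in mutant cells at the 3 times. Nop58 read 942, 1052 and 1817 in wild-type and 886, 1285 and 1817 in mutant cells. For both genes each 120 minute array was above every earlier array. Nop56 rose 2.12-fold (log2 1.09 ± 0.071; limma adjusted p = 1.93e-06) and Nop58 1.97-fold (log2 0.98 ± 0.083; adjusted p = 1.01e-05). Nolc1, a chaperone of these particles in the nucleolus, read 397, 420 and 734 in wild-type and 399, 514 and 775 in mutant cells. It rose by log2 0.90 ± 0.079. Dkc1, the pseudouridine synthase of the box H/ACA particles, rose by 0.89 ± 0.076. Fbl, the methyltransferase of the box C/D particles, rose by a smaller 0.37 ± 0.065, and its other probe set gave 0.41.

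Of the 4 genes of RNA polymerase I transcription, 3 rose over 120 minutes, against 16.2% of all genes. Polr1b, the second-largest subunit of the enzyme, read 132, 117 and 202 in wild-type and 130, 115 and 192 in mutant cells. Its 60 minute values were the lowest in both genotypes and its 120 minute values the highest. It rose 1.45-fold (log2 0.53 ± 0.086; limma adjusted p = 0.000653). Rrn3, the factor that makes the polymerase competent to start, read 423, 495 and 620 in wild-type and 416, 485 and 576 in mutant cells, in the same order in both. It rose by log2 0.49 ± 0.066. Ubtf, which keeps the ribosomal DNA open and recruits the polymerase, read 887, 780 and 996 in wild-type and 765, 785 and 979 in mutant cells. Its fitted rise of log2 0.26 ± 0.07 passed (adjusted p = 0.0126), but not without the mutant array of 0 minutes (0.16; 0.222) or that of 120 minutes (0.22; 0.0692), nor with the mean of its probe sets (0.29; 0.0853). Polr1a, the largest subunit, read 207, 183 and 208 in wild-type and 212, 159 and 182 in mutant cells and did not pass (log2 -0.10 ± 0.088; adjusted p = 0.398). Its other probe sets above the filter gave -0.01 and 0.29.

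Among 12 genes for the small subunit 8 rose and 1 fell (16.2% and 30.8% of all genes), with a median change of log2 0.54. Tsr1, a GTPase-like factor of late 40S assembly, read 938, 1125 and 1835 in wild-type and 971, 1166 and 1783 in mutant cells. It rose by log2 0.91 ± 0.057, or 1.88-fold (limma adjusted p = 1.42e-06). Rrp12, which takes part in export of pre-ribosomes, read 92.6, 111 and 200 in wild-type and 108, 109 and 211 in mutant cells and rose by 0.94 ± 0.093. Wdr43, a protein of the early processing complex, read 561, 563 and 935 in wild-type and 488, 623 and 944 in mutant cells. It rose by 0.83 ± 0.082. In all 3 genes both 120 minute arrays exceeded all others. The other members that rose were Heatr1 (0.67), Bysl (0.57), Ltv1 (0.56), Utp18 (0.52) and Nop14 (0.23). Nop14 lost its call without the wild-type array of 120 minutes (adjusted p = 0.0558) or the mutant array of 0 (0.297) or 120 minutes (0.132). Rrp9 (0.28; adjusted p = 0.0526), Noc4l (0.21; 0.058) and the helicase gene Ddx10 (-0.03; 0.771) did not pass. With each array divided by its median Rrp9 (0.34, limma adjusted p = 0.0221) and Noc4l (0.27, 0.0324) passed. Another Noc4l set passed in a fit of all probe sets (0.30; adjusted p = 0.0341).

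Nob1 was the member that fell. It encodes the nuclease that makes the last cut at the 3′ end of 18S ribosomal RNA. It read 555, 396 and 432 in wild-type and 413, 361 and 369 in mutant cells, so the wild-type array at 0 minutes was the highest and the others were close together. Nob1 fell by 0.25 on the log2 scale (-0.25 ± 0.081; limma adjusted p = 0.0267). The call was lost without the wild-type array of 0 (-0.14; adjusted p = 0.374) or 120 minutes (-0.23; 0.101), and when each array was divided by its median (-0.19; 0.107).

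Among 11 genes for the large subunit 8 rose and 0 fell (16.2% and 30.8% of all genes), with a median of log2 0.47. Rrs1, which brings the 5S RNP into the pre-ribosome, read 932, 1310 and 2380 in wild-type and 1083, 1316 and 2100 in mutant cells. It rose 2.21-fold (SE of the log2 change 0.083; limma adjusted p = 3.69e-06). Gnl3, also known as nucleostemin, is a nucleolar GTPase. It read 526, 670 and 1175 in wild-type and 488, 682 and 1098 in mutant cells and rose 2.20-fold (SE of the log2 change 0.065; limma adjusted p = 6.67e-07). Nop2, a methyltransferase of the large ribosomal RNA, read 396, 375 and 703 in wild-type and 318, 340 and 586 in mutant cells and rose by 0.83 ± 0.072. For Rrs1 and Gnl3 the arrays were ordered by time in both genotypes, whereas Nop2 was separate only at 120 minutes. Nop16 (0.80), Nip7 (0.77), Noc3l (0.47), Wdr74 (0.43) and Noc2l (0.28) also rose. The Noc2l call was lost without the wild-type array of 120 minutes (adjusted p = 0.0556) or the mutant array of 0 minutes (0.17). The PeBoW complex takes part in maturing the RNAs of the large subunit, and none of its 3 genes passed at the set used. Bop1 changed by 0.21 ± 0.087 (limma adjusted p = 0.0701), Wdr12 by 0.07 ± 0.065 (0.386) and Pes1 by -0.03 ± 0.062 (0.688). Bop1 passed with each array divided by its median (0.27, adjusted p = 0.03) and with the mean of its sets (0.24, 0.0306). Another set above the filter gave 0.34 for Wdr12 and 0.25 for Pes1. Neither passed in a fit of all probe sets (adjusted p = 0.0569 and 0.0532).

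Of the 4 measured nucleolar proteins with several functions 1 rose at the probe sets used (25% against 16.2% of all genes). Their median change was log2 0.09, the lowest of the role groups. Mybbp1a, a nucleolar regulator of transcription, read 1238, 1197 and 1444 in wild-type and 1154, 1135 and 1437 in mutant cells and rose by log2 0.27 ± 0.057 (limma adjusted p = 0.00356). Npm1, the abundant nucleolar chaperone nucleophosmin, read 7399, 7557 and 7361 in wild-type and 7547, 7356 and 6936 in mutant cells. Its change was -0.06 ± 0.046 (adjusted p = 0.278), with both 120 minute arrays just below both 0 minute arrays. Ncl, nucleolin, which packs and processes nascent ribosomal RNA, changed by 0.01 ± 0.046 at its brightest set (adjusted p = 0.868), and its 3 other sets above the filter gave 0.09 to 0.20, of which 1 with a change of 0.20 passed in a fit of all probe sets (adjusted p = 0.0402). Ddx21, a helicase of RNA polymerase I transcription, read 800, 809 and 841 in wild-type and 792, 928 and 968 in mutant cells at the set used and did not pass there (0.18 ± 0.07; adjusted p = 0.0622). Its other set read 579, 698 and 1046 in wild-type and 593, 775 and 1034 in mutant cells, a change of 0.81, which passed in the fit of all probe sets (adjusted p = 2.68e-05).

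The choice of probe set therefore sets some of these sizes. Of the 77 probe sets of the 38 members 68 were above the filter, and fitted as probe sets 46 of them were higher at 120 than 0 minutes and 1 lower, where 16.4% of 18911 probe sets were higher and 24.9% lower (at 60 minutes 7.32% and 8.05%). The sets differed by more than 0.3 on the log2 scale also for Bysl (0.57 used and 1.03), Wdr43 (0.83 and 1.20), Noc2l (0.28 and 0.61) and Polr1a (-0.10 and 0.29). For Odc1, Nop56, Rrs1, Dkc1, Nolc1, Tsr1, Fbl and Npm1, among others, the sets above the filter lay within 0.2 of the one used.

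**Figure D3:**
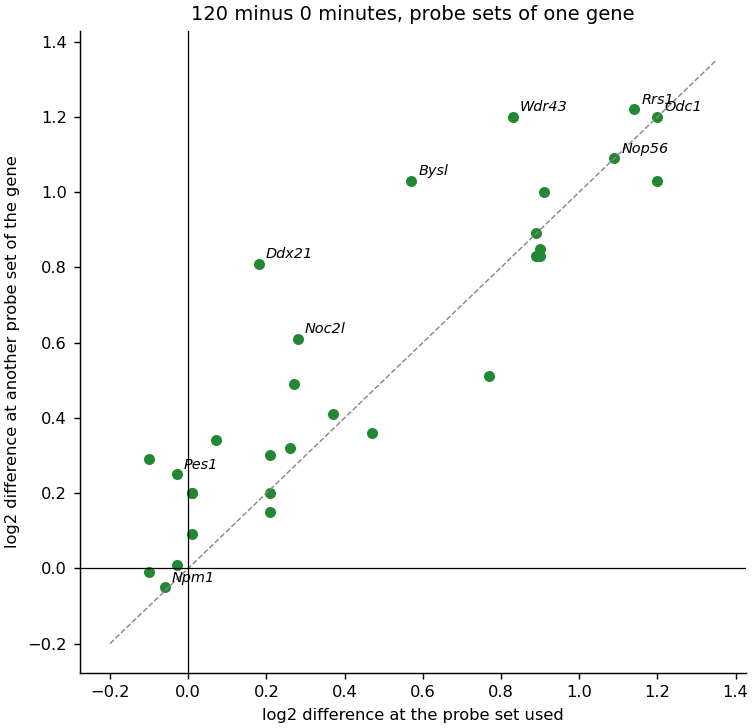
Fitted log2 difference of 120 minus 0 minutes at another probe set of a member (vertical axis) against that at the probe set used (horizontal axis), for sets above the filter; the dashed line marks equal values. Ddx21, Bysl, Wdr43 and Noc2l lie above the line.

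The comparison of 60 with 0 minutes shows what had moved within the first hour, and at the sets used few members had. Of 38 members 7 rose (18.4%) and 2 fell, where 7.34% of all genes were called higher and 10.7% lower, and the member median was log2 0.04 against -0.07 for all genes. Odc1 was the 1 member at least 1.5-fold higher in both genotypes (2.57% of all genes). The 7 were Odc1, Gnl3, Rrs1, Nop58, Tsr1, Ltv1 and Rrn3, and each of them also rose over 120 minutes. Odc1 had the largest early rise at log2 0.71 ± 0.11 (limma adjusted p = 0.00117), which was 59.7% of its log2 change over 120 minutes. Gnl3 rose by 0.40 ± 0.065 (35.5% of its change) and Rrs1 by 0.38 ± 0.083 (33.4%). Nop58 rose by 0.34 ± 0.083, Tsr1 by 0.26 ± 0.057, Ltv1 by 0.25 ± 0.068 and Rrn3 by 0.22 ± 0.066. In the fit of all probe sets another set rose for Wdr43 (0.38, limma adjusted p = 0.0217) and Ddx21 (0.32, 0.0133). Rrn3 missed in that fit (0.0734). Of the 7 members, Odc1 and Gnl3 kept the call when any array was left out. The other 5 lost it without at least 1 array: Rrs1 without the wild-type array of 0 minutes (0.23; adjusted p = 0.101), and Tsr1 without that array (0.09) or the mutant array of 60 minutes (0.0879). Nop58 lost it without the mutant array of 0 (0.23; adjusted p = 0.148) or 60 minutes (0.18; 0.199). Ltv1 lost it without the same arrays (0.17; 0.278 and 0.16; 0.255), and Rrn3 without any of the 4 arrays of these times (0.13 to 0.282).

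The 2 members that fell in the first hour were Nob1 (log2 -0.33 ± 0.081; limma adjusted p = 0.0201) and Noc2l (-0.28 ± 0.078; adjusted p = 0.032). Noc2l, known as an inhibitor of histone acetylation and a partner in 60S assembly, read 367, 276 and 438 in wild-type and 340, 300 and 428 in mutant cells, lowest at 60 minutes in both. Its dimmer set went the other way, from 64.9 to 83.5 and from 50.1 to 74.3, and the mean of both sets gave 0.05. Both calls were lost without the wild-type array of 0 minutes (-0.21 for each; adjusted p = 0.269 for Nob1 and 0.291 for Noc2l) or 60 minutes (-0.24 and -0.19; 0.159 and 0.249). Dividing each array by its median moved the split at 60 minutes from 7 higher and 2 lower to 10 and 0, and the share of higher calls among all genes called from 40.7% to 67.7%.

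The comparison of 120 with 60 minutes isolates the second hour, when the rise was broadest. Of 38 members 30 were higher (78.9%) and 0 lower, where 10.2% of all genes were called higher and 15% lower (limma), and the median member gained log2 0.46. Without a model, 12 were at least 1.5-fold higher in both genotypes, where 1.69% of all genes were, and 2.85% were that much lower. The largest gains were those of Nop56 (0.93 ± 0.071), Nop16 (0.92 ± 0.092), Srm (0.86 ± 0.064), Dkc1 (0.85 ± 0.076), Nop2 (0.82 ± 0.072) and Rrp12 (0.81 ± 0.093). Polr1b, which had not risen at 60 minutes, gained 0.69 ± 0.086. The 27 members higher at 120 than 0 minutes were all among the 30. The other 3 were Rrp9 (0.43), Noc4l (0.28) and Wdr12 (0.20), whose 60 minute values were -0.15, -0.07 and -0.13 against 0 minutes. These 3 lost the call without the wild-type array of 60 minutes (adjusted p = 0.159, 0.198 and 0.257), as did Odc1 (gain 0.29 in place of 0.48; 0.0662), Ltv1 (0.107), Rrn3 (0.077), Nop14 (0.0893) and Ubtf (0.0611). Wdr12 missed without any of the 6 arrays (0.06 to 0.257), and Noc4l also without the mutant array of 60 minutes (0.0708) or either 120 minute array (0.113 and 0.0852). Rrn3 also missed without the wild-type (0.0765) and Nop14 without the mutant array of 120 minutes (0.0606). Without the term for genotype 19 of 38 passed.

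Whether the second hour brought a larger log2 change than the first was tested directly, as the difference of these changes. It passed for 10 members, all with the larger change in the second hour, and for 0 the other way, where 4.72% of all genes were called higher and 5.86% lower (limma). Nop16 (1.03 ± 0.16), Noc2l (0.85 ± 0.13), Polr1b (0.85 ± 0.15), Srm (0.82 ± 0.11), Dkc1 (0.81 ± 0.13), Nop2 (0.81 ± 0.12) and Nop56 (0.78 ± 0.12) led, followed by Rrp12 (0.69), Heatr1 (0.55) and Tsr1 (0.39). Odc1 gave -0.23 ± 0.18 (adjusted p = 0.552) and Rrn3 0.06 ± 0.11 (0.827), so a difference between their hours was not detectable with all arrays. For Odc1 this depended on the wild-type array of 120 minutes. Without that array Odc1 gave -0.46, with the larger change in the first hour. The count was 6 without the wild-type array of 60 minutes, where Rrp12 (adjusted p = 0.0579), Heatr1 (0.118), Tsr1 (0.244) and Noc2l (0.0527) missed, and 3 without the term for genotype. Without the mutant array of 60 minutes Rrp12 (0.257), Heatr1 (0.0929) and Tsr1 (0.125) missed. Rrp12 (0.0724) and Tsr1 (0.0768) also missed without the mutant array of 0 minutes, and Tsr1 (0.0664) without that of wild-type cells at 120 minutes. With the mean of its probe sets Noc2l gave 0.35 (adjusted p = 0.155). With each array divided by its median, the median of all genes moved from 0.04 to -0.08 and that of the members from 0.39 to 0.26, and 8 members passed, while the share of higher calls among all genes called moved from 44.6% to 26.9%.

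**Figure D4:**
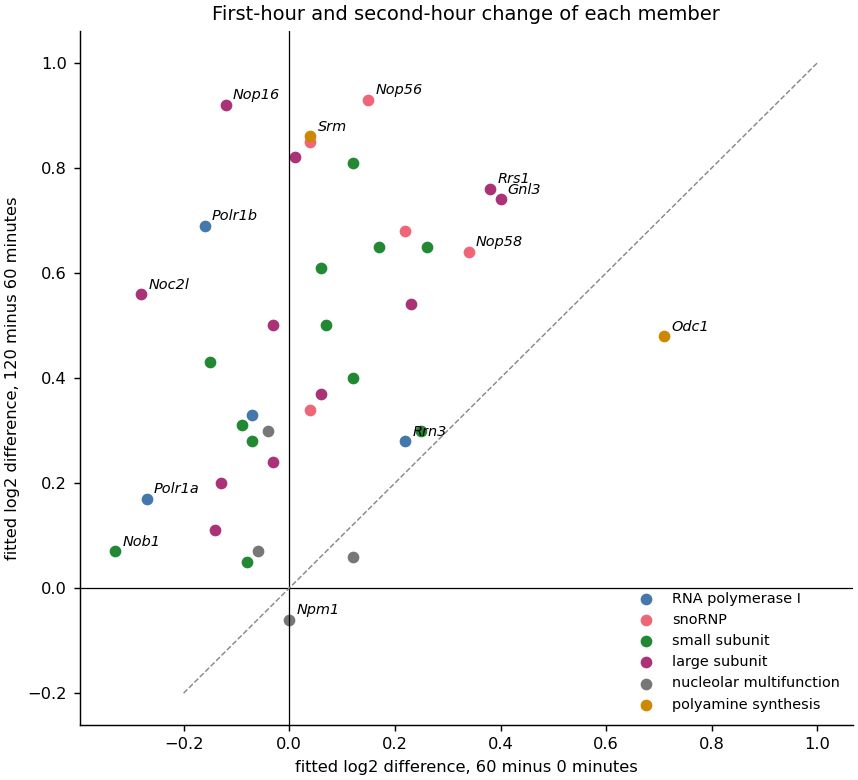
Fitted log2 difference of 120 minus 60 minutes (vertical axis) against 60 minus 0 minutes (horizontal axis) for the 38 members, coloured by role; the dashed line marks equal change in both hours. Most points lie above the line, Odc1 lies below it, and Nop16, Polr1b and Noc2l lie left of 0 in the first hour.

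The comparison of mutant with wild-type cells over the 3 times gave few calls among these genes. Of 38 members 2 were higher and 2 lower in mutant cells (5.26% each), where 10.4% of all genes were called higher and 8.92% lower (limma), and the median was log2 -0.01. Noc3l, a factor of 60S assembly, read 101, 93 and 148 in wild-type and 130, 134 and 183 in mutant cells, above at each time (log2 0.35 ± 0.076; adjusted p = 0.0111). Its other set gave 0.04. Ddx10, a nucleolar helicase, read 390, 360 and 410 in wild-type and 498, 481 and 452 in mutant cells, also above at each time (0.29 ± 0.065; adjusted p = 0.0131). Its other set gave 0.09. Nop2 (-0.23 ± 0.059; adjusted p = 0.0226) and Nob1 (-0.25 ± 0.066; adjusted p = 0.026) were below wild-type at each time. In all, 5 members were above at all 3 times and 7 below, where 28.4% and 22.9% of all genes were.

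The set used matters here too. With the mean of each gene's probe sets 0 members were higher and 3 lower: Noc3l (0.20; adjusted p = 0.0769) and Ddx10 (0.19; 0.138) missed, and Nip7 passed (-0.25; 0.0478) with Nop2 and Nob1. In the fit of all probe sets another set was lower in mutant cells for Odc1 (-0.38; adjusted p = 0.0119), Nip7 (-0.34; 0.046) and Polr1a (-0.35; 0.0474). None of the 4 calls held when each array was left out in turn. Noc3l and Ddx10 lost it without either 60 minute array (adjusted p = 0.058 and 0.063 for Noc3l, 0.0641 and 0.0673 for Ddx10). Nop2 and Nob1 lost it without either 0 minute array (0.135 and 0.132 for Nop2, 0.2 and 0.194 for Nob1), and Nop2 also without either 120 minute array (0.0525 and 0.0506). Without time as the block that pairs the arrays, 0 members passed. With each array divided by its median 2 members were higher and 1 lower, Nop2 missing at an adjusted p of 0.0504, and the share of higher calls among all genes called moved from 53.9% to 64.2%.

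The difference in time response between the genotypes rests on 1 array for each point and has no test. Over 120 minutes the median member gained log2 0.52 in wild-type and 0.50 in mutant cells, where the medians of all genes were -0.08 and -0.10. At 60 minutes the signed log2 change was higher in mutant than in wild-type cells for 30 of 38 members, with a median difference of 0.12, where it was for 56% of all genes with a median of 0.02. These 30 include members with a smaller decrease in mutant cells, such as Nob1 (-0.47 in wild-type and -0.19 in mutant cells) and Noc2l (-0.39 and -0.17). At 120 minutes the signed change was lower in mutant cells for 16 of 38 members (57.5% of all genes). The differences at 1 time share the same 4 arrays. The largest at 60 minutes were Nip7, a factor of 60S assembly (0.02 in wild-type and 0.43 in mutant cells), and Nop58 (0.16 and 0.53). Nip7 read 925, 939 and 1541 in wild-type and 737, 998 and 1302 in mutant cells, so its mutant array started lower, and its other set gave a difference of 0.17 in place of 0.41. The largest at 120 minutes was Rrs1 (1.34 and 0.94), but the other Rrs1 set gave a difference of -0.02. Odc1 gained 1.38 in wild-type and 1.01 in mutant cells, a difference of -0.37. Its other sets gave -0.47 and 0.04.

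Related genes were read from lists taken from textbook knowledge, also chosen with earlier results of these data known. Of 84 other tested genes of ribosome biogenesis 44 rose over 120 minutes (52.4% against 16.2% of all genes) and 7 fell (8.33% against 30.8%). Their median was log2 0.26. At 60 minutes 7 rose (8.33% against 7.34% of all genes) and 5 fell (5.95% against 10.7%). Ppan, a factor of 60S assembly, rose by 1.30 ± 0.078, and Rrp8 by 1.03 ± 0.075, Lyar by 0.98 ± 0.094 and Rrp15 by 0.91 ± 0.075. The ribosomal proteins, whose synthesis is known to be set largely at translation, were close to 0. Of 40 tested 1 rose and 1 fell (2.5% each), with a median of -0.03. These were Rpl12 (0.79 ± 0.09) and Rpl41 (-0.14 ± 0.048). The Rpl12 set was much dimmer, at 187, 226 and 365 in wild-type and 211, 204 and 346 in mutant cells. Rpl41 read between 5606 and 6617. Of 19 other polyamine genes 6 rose (31.6% against 16.2% of all genes) and 5 fell (26.3% against 30.8%). Azin1, the inhibitor of antizyme that spares ornithine decarboxylase from degradation, read 877, 1963 and 2871 in wild-type and 939, 2126 and 2747 in mutant cells. It rose by 1.16 ± 0.061 at 60 and 1.61 ± 0.061 at 120 minutes (limma adjusted p = 4.66e-08). Atp13a3, a transporter of polyamines, rose by 0.89 ± 0.099, the hypusine enzyme gene Dhps by 0.56 ± 0.098 and Enoph1, of the methionine salvage pathway, by 0.45 ± 0.083.

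Of 19 genes of RNA polymerase III, which makes 5S ribosomal RNA and transfer RNAs, 6 rose (31.6%) and 3 fell (15.8%) over 120 minutes. Over all genes tested 16.2% were called higher and 30.8% lower. Polr3g changed by log2 0.66 ± 0.099, Bdp1 by 0.58 ± 0.076, Polr3e by 0.45 ± 0.078 and Polr3b by -0.60 ± 0.082. Of 20 genes of nucleotide synthesis 5 rose (25%) and 1 fell (5%). Ppat, which starts purine synthesis, rose by 1.28 ± 0.1, the uridine kinase gene Uck2 by 1.10 ± 0.097, Adss by 0.50 ± 0.052 and Pfas by 0.43 ± 0.081. Of 9 genes of the MYC network 4 rose (44.4%) and 3 fell (33.3%). Myc, whose product is known to bind E-boxes of ribosome biogenesis genes, read 487, 1888 and 776 in wild-type and 449, 2008 and 735 in mutant cells, highest at 60 minutes in both. It rose by 2.02 ± 0.067 at 60 minutes and was 0.67 ± 0.067 above 0 minutes at 120 minutes. Mxi1 (-0.71 ± 0.076), Mnt (-0.70 ± 0.066) and Mxd4 (-0.67 ± 0.076), which encode antagonists of MYC, fell over 120 minutes.

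**Figure D5:**
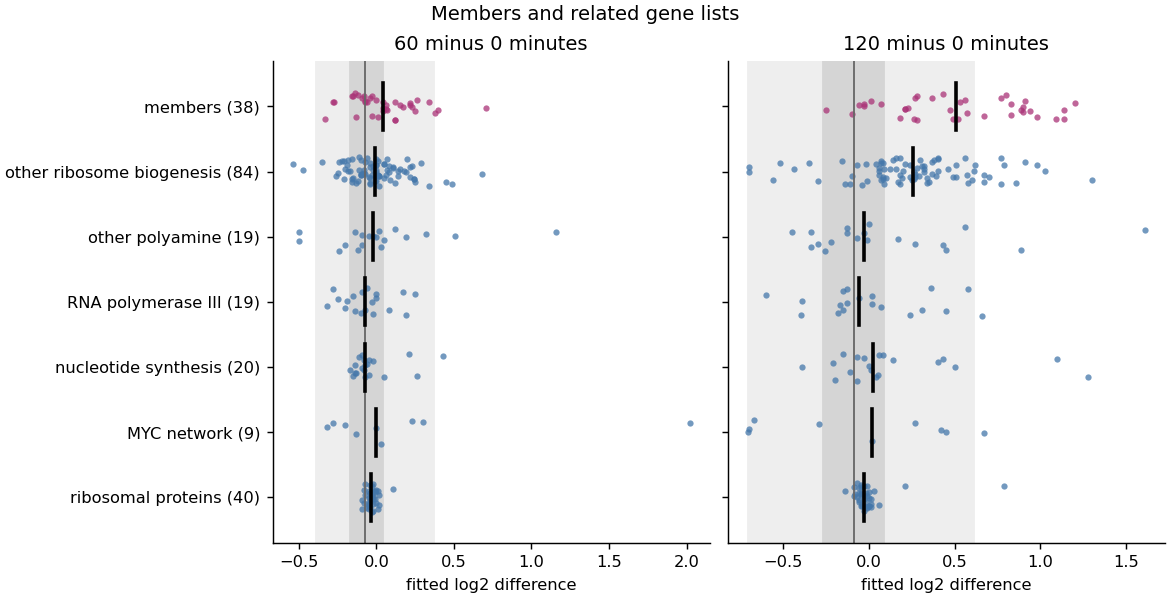
Fitted log2 difference of each tested gene, at 60 minutes (left) and 120 minutes (right) against 0 minutes, for the members and 6 related lists with the number of genes in brackets; black bars are list medians, the grey line is the median of all genes tested, and the bands run from the 25th to the 75th and from the 5th to the 95th percentile of all genes. At 120 minutes the member median is 0.51, that of other ribosome biogenesis genes 0.26 and that of ribosomal proteins -0.03.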

How the data were processed

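RNA of 6 samples was measured on Affymetrix arrays. The authors deposited linear probe-set intensities; the submitters' processing notes name PLIER and Affymetrix Power Tools 1.14.3.1. Background correction and scaling between arrays are not given in the sources used here. Of 45101 probe sets, 34945 had 1 gene, 932 several, 9160 none and 64 were controls. Gene identifiers of 34741 sets matched RefSeq (GRCm38.p6).

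Values were analysed as log2(intensity + 16), with no scaling of arrays. Each gene was read at its set with the highest mean, and genes under the 40th percentile (intensity 39.2) were left out. Fits used limma 3.58.1 in R 4.3.3 with genotype and time as additive terms, trended empirical Bayes (2 residual and 7.77 prior degrees of freedom), two-sided tests and Benjamini-Hochberg adjustment over 10916 genes. Time from the labels pairs the genotypes' arrays: deviations from the genotype mean correlated across genes at Pearson's r of 0.911, 0.756 and 0.871 for equal times, which includes the shared time response.

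The members and lists were chosen with earlier results of these data known. Values per array are given for the polyamine genes, the 3 largest 120 minute changes per role, members that fell or differed by genotype, and the 3 largest differences in time response. Other members are named with their change alone, or where their probe sets disagreed. Up to 4 genes of each related list are named by size of change. Alternatives changed the offset, filter, scaling, probe set rule, shrinkage, model terms and arrays. Motifs were searched in RefSeq promoter windows.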

Additional observations from a re-analysis of the deposited data

Results flagged for a closer look

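For 12 members the arrays of the genotypes moved in opposite directions from 0 minutes, at 60 or at 120 minutes, in several cases by little. The share of all genes that did so was not counted, so this count cannot be called high or low. These differences were not tested, since each point is 1 array. At 60 minutes Rrp9 changed by log2 -0.32 in wild-type and 0.03 in mutant cells (difference 0.35), Bop1 by -0.18 and 0.11 (0.30), Ubtf by -0.18 and 0.04 (0.22) and Nop2 by -0.08 and 0.09 (0.17). Noc3l changed by -0.10 and 0.04 (0.14), Fbl by -0.01 and 0.09 (0.10), Dkc1 by 0.08 and -0.01 (-0.09) and Npm1 by 0.03 and -0.04 (-0.07). At 120 minutes Ddx10 changed by 0.07 and -0.13 (-0.20), Polr1a by 0.00 and -0.20 (-0.20), Pes1 by -0.07 and 0.01 (0.08) and Ncl by -0.02 and 0.04 (0.06).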

How the results depend on the processing

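Of the 28 calls over 120 minutes 23 held under every alternative run, and 24 held when any single array was left out. Of the 30 calls of the second hour 18 and 22 did, of the 10 calls of the difference between hours 2 and 6, of the 9 calls at 60 minutes 2 and 2, and of the 4 genotype calls 0 and 0. With no replicate block, that is without time in the fit, 0 members passed for genotype in place of 4. Without the genotype term the calls were 2 in place of 9 at 60 minutes, 19 in place of 30 for 120 minus 60 minutes, and 3 in place of 10 for the difference between hours. Without the trend in shrinkage they were 2 for genotype and 2 at 60 minutes. A fit without time or genotype carries the effect of that term in its error, and how much this moved each count was not tested. Nor was the cause of the change without the trend. Leaving out each array in turn gave 2 to 3 members for genotype, 5 to 10 at 60 minutes, 25 to 30 over 120 minutes, 22 to 30 for 120 minus 60 minutes and 6 to 13 for the difference between hours, with 1 residual degree of freedom in each of these fits. The Noc2l change at 60 minutes was 0.05 with the mean of its probe sets. Each genotype and time has 1 array, which limits what any count can show.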
